A study of Saccharomyces cerevisiae with 16 samples.

Results

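The cytosolic chaperone core of budding yeast was read out in 10 genes, chosen by locus name: the Hsp70 genes SSA1, SSA2, SSA3, SSA4, SSB1 and SSB2, the Hsp90 genes HSC82 and HSP82, the disaggregase gene HSP104 and the J-protein gene SIS1. They are 10 of the 5696 yeast gene rows of the deposited count table, and each had a row. All strains were BY4741 carrying a plasmid, grown for 4 h at 30 °C in synthetic medium lacking uracil until an OD600 of 0.7. In 7 groups a low copy plasmid carried an mCherry reporter under the RPS3 promoter and with the terminator of RPS3, a gene of the small ribosomal subunit. The terminator had 3 insertion sites of 9 bp in the 6 modified groups (modNNN, modNTN, modNAA, modNGG, modHNH and modHTH) and was unmodified in the group called WT. Each letter names the content of a site, with N for random sequence, H for the motif TTTCATTTC, T for TGTACAATA, A for ATATTC, and G for an insert that the labels do not spell out. The remaining group carried the control plasmid POT1-ccdB, which has no reporter gene and may differ from the reporter plasmids in more than the reporter.

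RNA molecules with a 5′ phosphate were sequenced after reverse transcription from oligo(dT) alone. Such molecules are mostly decay intermediates, so a read count measures neither total mRNA nor protein. Of 16 libraries, 13 were usable, with 1070844 to 2939907 reads each. Replicate 2 was nearly empty in 3 groups, with 477 reads in modNGG, 267 in modHNH and 69 in modHTH, and was left out, so each of them rests on 1 library. The labels do not state that replicates were grown separately. P-values therefore measure only how far these libraries differ, and that spread can be technical. The strain was checked through marker genes. The mating type a genes MFA1, MFA2, STE2 and BAR1 had at least 137 reads in every library. Of the mating type alpha genes, the alpha factor genes MF(ALPHA)1 and MF(ALPHA)2 had 0 to 7 reads, STE3 had 6 to 20 and SAG1 had 35 to 95. URA3 and MET17, both deleted in BY4741, had 0. LEU2, also deleted, had 0 to 2 reads, whereas HIS3 had 198 to 582, and the BY4741 deletion of HIS3 leaves part of the gene in place.

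Hsp70 proteins bind exposed hydrophobic stretches of unfolded polypeptides in a cycle driven by ATP, which J-proteins of the Hsp40 family start and nucleotide exchange factors such as Hsp110 complete. Hsp90 acts later, on near-native clients such as kinases and hormone receptors, and receives many of them from Hsp70. Hsp104 threads aggregated proteins through its central channel together with Hsp70 and Hsp40. In yeast the heat shock factor Hsf1 drives most of these genes, and several also respond to Msn2 and Msn4, the general stress factors.

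The 10 genes together took 1.20% to 1.52% of the yeast reads of a library, with the lowest share in WT replicate 1 and the highest in modNGG. Levels were compared between genes as CPM (counts per 1000000 yeast reads) divided by the annotated transcript length in kb, averaged over 13 libraries. HSC82, the constitutive Hsp90, was highest at 1729.7 ± 343 CPM per kb (SD, n = 13) and ranked 54th of 4818 genes with an annotated length. The ribosome-associated Hsp70 genes followed, SSB2 at 1265 ± 66.4 and SSB1 at 1049 ± 132 CPM per kb. SSA2 and SSA1, the Hsp70 genes expressed without stress, averaged 682 ± 116 and 394 ± 96.5 CPM per kb, with HSP82, the heat-inducible Hsp90, between them at 635 ± 106. The lower end held HSP104 at 155 ± 19.9, the heat-inducible SSA4 at 95.3 ± 21.5, SIS1 at 93.6 ± 17.4 and the heat-inducible SSA3 at 44.3 ± 10.5 CPM per kb, which ranked 2450th.

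Most neighbours in this order kept their places in 13 of 13 libraries. The exceptions were SSB2 above SSB1, which held in 11 of 13, and SSA2 above HSP82 in 9 of 13. Another was SSA4 above SIS1, in 7 of 13. In CPM per kb the last 2 pairs therefore did not differ beyond their spread. Without division by length, SSA4 averaged 265 ± 59.8 CPM and SIS1 151 ± 28 CPM (SD, n = 13). The closeness of SSA4 and SIS1 thus depends on that division. Within the SSA family SSA2 supplied 50.3% to 62.5% of reads and SSA3 1.86% to 6.04%. HSC82 supplied 64.7% to 79.3% of the Hsp90 reads. SSA1 and SSA2, SSB1 and SSB2, and HSC82 and HSP82 are near-identical copies, and the labels do not say how reads that fit both copies were counted. The split within each of these pairs is therefore uncertain.

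**Figure D1:**
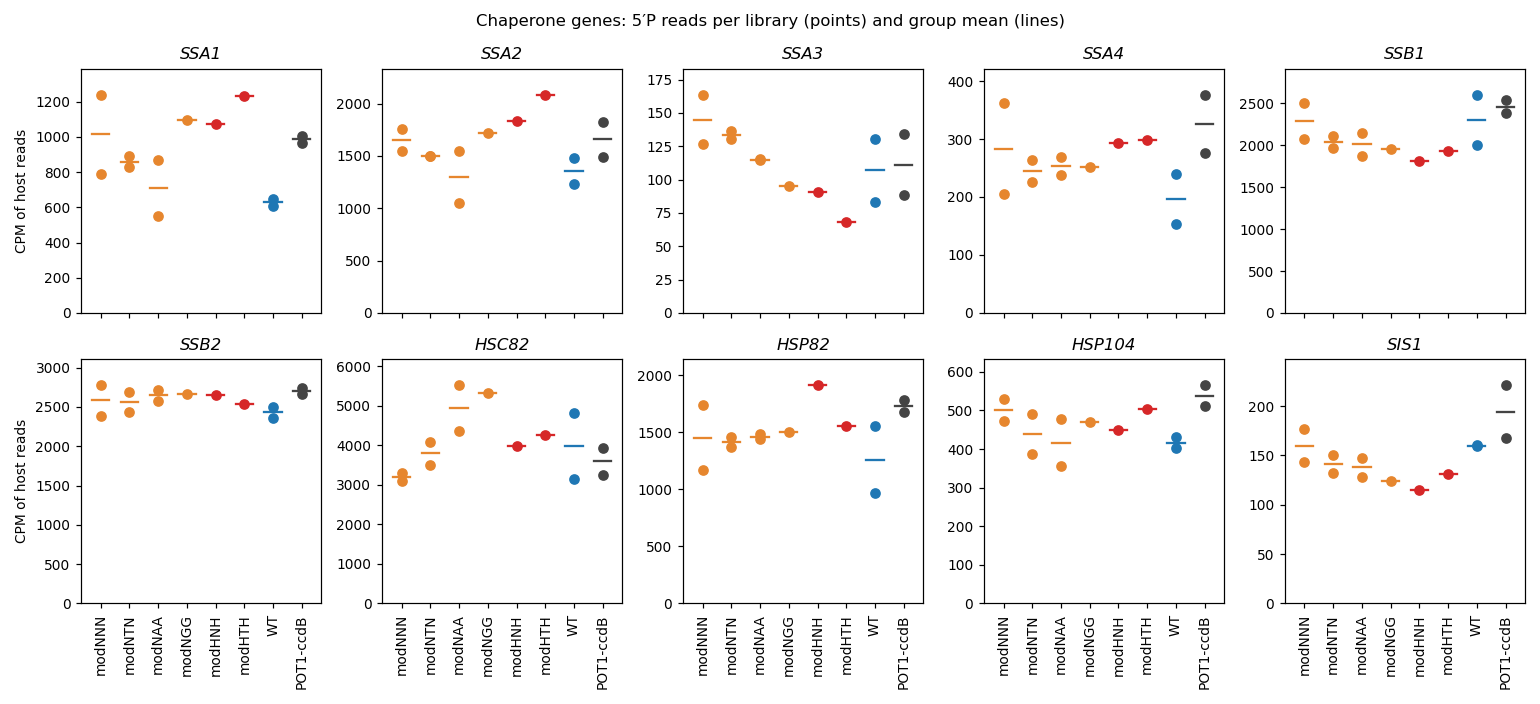
Each panel plots 1 chaperone gene, with the 8 groups on the horizontal axis and CPM of yeast reads on a vertical axis that starts at 0; points are libraries and short lines are group means. The points of SSB2 stay between 2363 and 2777 CPM, SSA1 is low in both WT libraries at 649 and 609 CPM, and SSA3 is lowest in modHTH at 68.4 CPM.

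The genes lie on 8 chromosomes of the sacCer3 (R64) build, given here as annotated transcripts. SSA1 (YAL005C) spans chromosome I 139381 to 141684 on the minus strand, SSA2 (YLL024C) chromosome XII 95216 to 97537 on the minus strand, SSA3 (YBL075C) chromosome II 84418 to 86984 on the minus strand, and SSA4 (YER103W) chromosome V 363853 to 366637 on the plus strand. SSB1 (YDL229W) lies at chromosome IV 43965 to 46008 and SSB2 (YNL209W) at chromosome XIV 251995 to 254043, both on the plus strand. HSC82 (YMR186W) lies at chromosome XIII 632216 to 634553 on the plus strand and HSP82 (YPL240C) at chromosome XVI 96377 to 98747 on the minus strand. HSP104 (YLL026W) spans chromosome XII 88442 to 91439 on the plus strand, and SIS1 (YNL007C) chromosome XIV 618084 to 619692 on the minus strand. Each range holds the coding sequence and both annotated untranslated ends. The SSA1 transcript lies wholly under an antisense row, YAL004W, which held only 1 to 10 reads, and 142 nt of SSA2 and 87 nt of HSC82 also have an antisense row. Whether reads were counted by strand is not stated, so sense and antisense reads cannot be told apart with certainty. SSA4 shares 196 nt on its own strand with the ribosomal protein gene RPS8B, which held 1666 to 4651 reads, so reads in that overlap cannot be assigned with certainty. SSA3 shares 552 nt with AAR2 (0 to 9 reads) and SIS1 178 nt with ASI3 (68 to 148 reads), both on the same strand.

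Replicates of a group differed to unequal degrees between the genes. SSB2 was the steadiest: its 2 libraries of a group differed by at most 1.16-fold, and its group means lay within 1.11-fold of each other. SSA4 differed most, by 1.77-fold between the modNNN libraries, and 5 of the 10 genes differed by at least 1.5-fold in some group. HSP82 differed by 1.61-fold and HSC82 by 1.54-fold between the 2 WT libraries. SSA1 differed by 1.57-fold between the modNAA libraries. The median ratio within groups over all genes with at least 20 CPM was 1.15, and 4 of the 10 genes exceeded it. For the single libraries of modNGG, modHNH and modHTH, the 95% Wilson interval of a member's share of reads reached from 1.87% to 22.0% of the value to either side, widest for SSA3 in modHTH; it covers counting error only.

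Across the 8 groups no chaperone gene passed the test for any difference. Of the 10 genes 0 had an adjusted p under 0.05 (edgeR's quasi-likelihood test, Benjamini-Hochberg adjustment over 5268 genes), where 0.019% of all genes tested had one. SSA1 had the smallest p of the 10, at 0.0091 (adjusted p = 0.13 in edgeR). At an unadjusted p under 0.05 SSA1 and SIS1 passed, and 19.2% of all genes did. DESeq2's likelihood ratio test called SSA1 with an adjusted p of 0.021 and no other member. That test called 231 of 5268 genes, and 1941 genes had no adjusted p. SSA1 was also called in edgeR with either modNNN library left out. Those fits leave 1 library in modNNN, and they called many more of all genes than the fit with both.

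The first comparison set the 7 reporter groups, weighted equally, against the plasmid without a reporter. No chaperone gene passed it, while 9 of the 10 had fitted values below 0, by up to 1.45-fold for SIS1, and HSC82 had a value above 0. Over the 10 genes the median log2 fold change was -0.21, and over all 5268 genes it was 0.02. Of the 10 genes 0 were called, against 0.38% of all genes. These 20 genes were all lower, but 5 of 24 were higher when scaled to library totals and 80 of 301 without modNNN replicate 1. At an unadjusted p under 0.05 in edgeR SIS1, SSB1 and HSP104 passed, 3 of 10, beside 18.2% of all genes.

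SIS1 encodes the essential J-protein that hands substrates to the SSA proteins and restrains Hsf1. Its level in the 11 reporter libraries ran from 115 through a median of 143 to 177 CPM, against 168 and 221 CPM in the POT1-ccdB libraries. The groups overlapped, because modNNN replicate 1 with 177 CPM lay above POT1-ccdB replicate 1. SIS1 averaged 143 ± 18.5 CPM with a reporter (SD, n = 11) and 195 ± 37.9 CPM without one (SD, n = 2). The log2 fold change was -0.53 (SE 0.13), and edgeR's adjusted p was 0.078. SIS1 was called without WT replicate 1 (log2 fold change -0.56), without modNNN replicate 1 (-0.57) and without modNNN replicate 2 (-0.51). Each of these fits leaves 1 library in a group, and each called more of all genes than the reported fit. Without POT1-ccdB replicate 2 the log2 fold change of SIS1 was -0.36. DESeq2 gave SIS1 an adjusted p of 0.045, and edgeR without a filter on low counts gave 0.048. These 2 fits called 59 and 61 of all genes, against 20 in the reported fit.

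SSB1 chaperones nascent chains at the ribosome. It had 1810.4 to 2601 CPM in the reporter libraries, with a median of 1997, against 2540.2 and 2378 CPM in POT1-ccdB. The log2 fold change was -0.32 (SE 0.13, adjusted p = 0.20 in edgeR). Only WT replicate 1 and modNNN replicate 1 reached the range of the controls.

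HSP104 had 355 to 529 CPM with the reporter, median 469, against 566 and 511 CPM without it, a log2 fold change of -0.30 (SE 0.14, adjusted p = 0.25 in edgeR). The heat-inducible SSA4 had 154 to 362 CPM with the reporter, median 252, against 276 and 376 CPM without it. Its value was -0.38 (SE 0.18, adjusted p = 0.28), and it was -0.60 without POT1-ccdB replicate 1 and -0.18 without replicate 2. For both genes the ranges overlapped.

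HSP82 ran from 963 through a median of 1486 to 1911 CPM in the reporter libraries, against 1678 and 1777 CPM in POT1-ccdB. The fitted value was -0.26 on the log2 scale (SE 0.16, adjusted p = 0.38 in edgeR). HSC82 ran from 3107 to 5521 CPM, median 4093, against 3922 and 3259 CPM in POT1-ccdB. Its value was 0.15 (SE 0.15, adjusted p = 0.59). The other 4 members, SSA1, SSA2, SSA3 and SSB2, had values between -0.15 and -0.10. The signs of SSA3 and SSA2 depended on single control libraries: SSA3 had a value of -0.41 without POT1-ccdB replicate 1 and 0.17 without replicate 2, and SSA2 had 0.07 and -0.25. HSC82 had 0.30 without replicate 1 and 0.01 without replicate 2. No gene of the 10 had all 11 reporter libraries below both controls, a pattern that 1.94% of all genes showed.

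**Figure D2:**
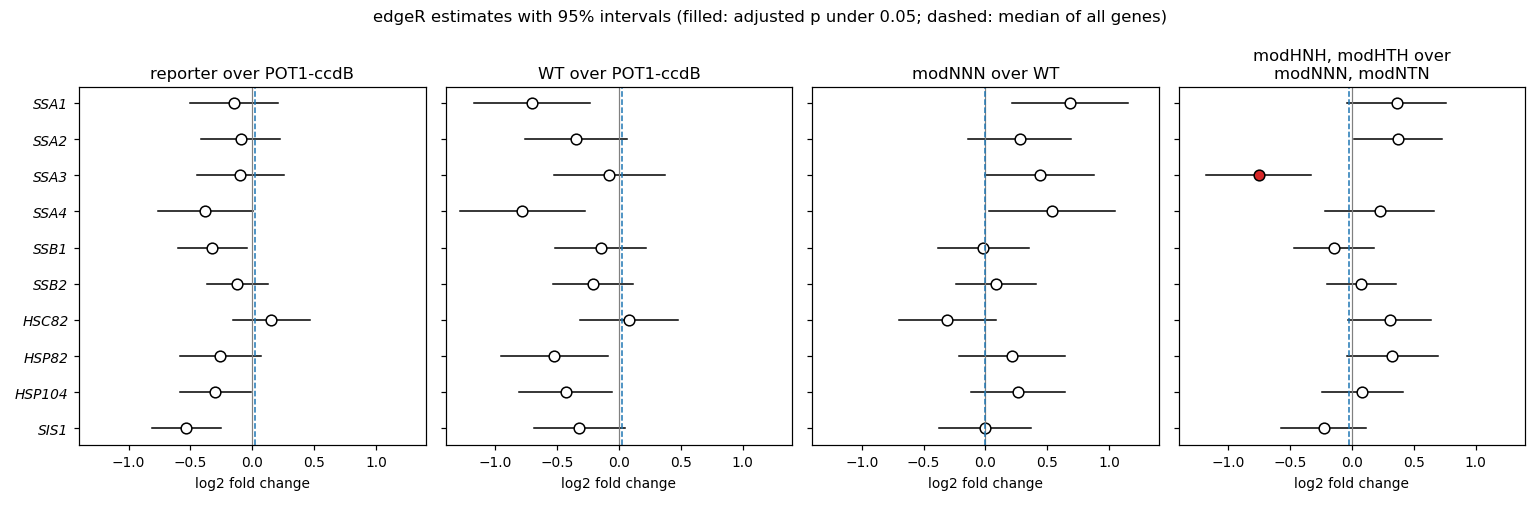
Each panel is 1 comparison, with the 10 genes down the page and the log2 fold change on the horizontal axis; circles are edgeR estimates, bars their 95% intervals, filled circles an adjusted p under 0.05 and the dashed line the median of all genes tested. SSA3 in the comparison of terminators with and without H is the only filled circle, at -0.76, and 9 of 10 circles lie below 0 in the comparison of reporter with POT1-ccdB.

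Genes of cells leaving fermentative growth were checked as a sign of culture stage, and 2 of them, SPI1 and YGP1, fell in the reporter libraries relative to POT1-ccdB. Of 10 such genes 9 were tested and 9 had values below 0 with the reporter, beside 47.3% of all genes. The 2 calls compare with 0.38% of all genes called lower. SPI1, a cell wall protein gene, had 270 to 442 CPM in reporter libraries against 555 and 554 CPM in POT1-ccdB, a log2 fold change of -0.81 (SE 0.14, adjusted p = 0.019 in edgeR). YGP1, a secreted glycoprotein gene, had 444 to 713 CPM with the reporter, against 856 and 893 CPM without it, a log2 fold change of -0.68 (SE 0.12, adjusted p = 0.019 in edgeR). Neither gene's groups overlapped, and both calls were lost with either POT1-ccdB library left out and in the fit on the groups with 2 usable libraries.

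Averaged over the 9 genes, the log2 deviation from each gene's mean was -0.31 to 0.21 in the reporter libraries, against 0.31 and 0.60 in POT1-ccdB. The 10 chaperone genes deviated by -0.23 to 0.16 in the reporter libraries, against 0.19 and 0.21 in POT1-ccdB. Among these markers GRE1, SPG1, SPG4, SNZ1, SNO1 and SIP18 had at most 64 reads in any library, and SNO1, with 0 to 3, was not tested. The mating type a genes also had 4 of 4 values below 0 with the reporter, with 0 called and a median of -0.33, and deviated by -0.27 to 0.20 in the reporter libraries, against 0.21 and 0.30 in POT1-ccdB. The part of either list in the chaperone values was not tested. In bulk cultures, fewer cells of a state and less RNA per cell cannot be told apart.

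The unmodified reporter (WT) against POT1-ccdB shares its control libraries with the comparison before it. The constitutive SSA1 and the inducible SSA4 had the lowest values, and SSA2, SSB2, HSP82, HSP104 and SIS1 were also lower in both WT libraries than in both controls. Together 7 of the 10 genes did not overlap in this direction, which 13.5% of all genes showed. None was called, against 0.038% of all genes tested, and at an unadjusted p under 0.05 in edgeR 4 of the 10 passed, as did 8.94% of all genes. The median log2 fold change was -0.33 over the 10 genes and 0.02 over all genes.

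SSA4 had 154 and 239 CPM in WT, against 276 and 376 CPM in POT1-ccdB. Its log2 fold change was -0.78 (SE 0.24, adjusted p = 0.34 in edgeR). SSA1 had 649 and 609 CPM in WT, against 1007 and 964 CPM in POT1-ccdB, with a value of -0.70 (SE 0.22, adjusted p = 0.35). Both genes separated the groups completely, and neither difference passed after adjustment.

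HSP82 had 963 and 1553 CPM in WT, against 1678 and 1777 CPM in POT1-ccdB. Its log2 fold change was -0.52 (SE 0.20, adjusted p = 0.48 in edgeR), and that of HSP104 was -0.43 (SE 0.18, adjusted p = 0.51). The WT libraries were far apart in HSP82, whose value was -0.28 without WT replicate 1 and -0.86 without replicate 2. HSC82 had 3139 and 4821 CPM in WT, against 3922 and 3259 CPM in POT1-ccdB, so its WT libraries enclosed both controls. The growth stage genes were below 0 in 8 of 9 cases in this comparison, beside 46.3% of all genes. They had 0 called and a median of -0.61, and their part in the chaperone values was not tested.

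Random inserts (modNNN) against the unmodified terminator (WT) tested whether inserting sequence was accompanied by a different chaperone readout. None of the 10 genes was called, against 0.019% of all genes, and 7 of 10 values were above 0 with a median of 0.24, against -0.01 over all genes. At an unadjusted p under 0.05 SSA1 and SSA4 passed, beside 5.41% of all genes. SSA1 had 791 and 1239 CPM in modNNN, against 649 and 609 CPM in WT. Its log2 fold change was 0.69 (SE 0.22, adjusted p = 0.83 in edgeR). SSA4 had 204 and 362 CPM in modNNN, against 154 and 239 CPM in WT, a value of 0.54 (SE 0.24, adjusted p = 0.83). The groups did not overlap in SSA1 and overlapped in SSA4. The share of all genes without overlap was not computed for this comparison or for those between modified terminators below. Without modNNN replicate 2 the SSA4 value was 0.05, without modNNN replicate 1 0.91, without WT replicate 1 0.30 and without WT replicate 2 0.84.

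HSC82 ran the other way, with 3107 and 3302 CPM in modNNN against 3139 and 4821 CPM in WT. The log2 fold change was -0.31 (SE 0.19, adjusted p = 0.85 in edgeR). SSA3 had a value of 0.44 (SE 0.21, adjusted p = 0.83), with 164 and 126 CPM in modNNN against 83.4 and 131 CPM in WT. SSB1 and SIS1 had values of -0.02 and -0.01. The value of HSC82 was -0.02 without WT replicate 2 and -0.54 without WT replicate 1, and that of SSA3 was 0.20 without WT replicate 1, 0.75 without WT replicate 2 and 0.27 without modNNN replicate 1. Without modNNN replicate 2 the SSA1 value was 0.31. The sizes of these differences therefore depended on single libraries.

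The motif inserts were each compared with modNNN, so these comparisons share the modNNN libraries. With 1 T motif (modNTN) 0 of 10 genes were called and 0% of all genes were, with values from -0.28 for SSA1 to 0.20 for HSC82, of which 9 were below 0, beside 50.6% of all genes, and a median of -0.20. The SSA1 value was 0.09 without modNNN replicate 2 and -0.58 without replicate 1. That of SSA4 was -0.25 with both, 0.23 without replicate 2 and -0.62 without replicate 1. At an unadjusted p under 0.05, 0 of 10 passed in edgeR, against 1.92% of all genes. With 2 A motifs (modNAA) 0 of 10 were again called, beside 0% of all genes; HSC82 and SSA1 passed unadjusted, as did 6.21% of all genes. Here 8 of 10 values were below 0, beside 51.5% of all genes, with a median of -0.23. HSC82 had 4353 and 5521 CPM in modNAA, against 3107 and 3302 CPM in modNNN, a log2 fold change of 0.59 (SE 0.19, adjusted p = 0.76 in edgeR). SSA1 had 870.4 and 553 CPM in modNAA, against 791 and 1239 CPM in modNNN, with a value of -0.54 (SE 0.22, adjusted p = 0.76). HSC82 separated the groups, and SSA1 did not. With 1 library left out, the SSA1 value was -0.17 (modNNN replicate 2), -0.23 (modNAA replicate 2), -0.85 (modNNN replicate 1) or -0.94 (modNAA replicate 1).

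With the G insert in 2 sites (modNGG, 1 library) 0 of 10 genes and 0% of all genes were called; HSC82 and SSA3 passed unadjusted, as did 14.4% of all genes. HSC82 had 5312 CPM in modNGG, against 3107 and 3302 CPM in modNNN. The log2 fold change was 0.76 (SE 0.22, adjusted p = 0.21 in edgeR, which assumes that the single library varies like the other groups). SSA3 had 94.9 CPM in modNGG, against 164 and 126 CPM in modNNN, with a value of -0.58 (SE 0.26, adjusted p = 0.33). The other Hsp90 gene, HSP82, had 1500.3 CPM in modNGG, against 1166 and 1738 CPM in modNNN, and a value of 0.08, which was -0.22 without modNNN replicate 1 and 0.41 without replicate 2. Of the 10 values 5 were below 0, beside 50.3% of all genes.

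The terminators with the H motif in the outer sites (modHNH and modHTH) were set against the matched terminators without it (modNNN and modNTN). The inducible SSA3 was the only chaperone gene that passed, and it fell by 0.76 on the log2 scale, a difference of 1.69-fold. SSA2, SSA1, HSP82 and HSC82 had values above 0 that did not pass. Thus 1 of 10 genes was called, against 5.47% of all genes tested, with 2.2% lower and 3.26% higher. A single call among 10 genes does not set them apart from all genes. At an unadjusted p under 0.05 SSA3 and SSA2 passed, beside 26.1% of all genes. The median log2 fold change was 0.15 over the 10 genes and -0.02 over all genes.

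SSA3 had 90.7 CPM in modHNH and 68.4 CPM in modHTH, against 164 and 126 CPM in modNNN and 136 and 130.5 CPM in modNTN. These values came from 118 and 80 reads in the H libraries, with 95% Wilson intervals of 75.8 to 109 and 55.0 to 85.1 CPM. Both H libraries lay below all 4 libraries of modNNN and modNTN. However, WT replicate 1 with 83.4 CPM, POT1-ccdB replicate 1 with 88.1 CPM and modNGG with 94.9 CPM, which carry no H, lay in or near the same range. The log2 fold change was -0.76 (SE 0.20, adjusted p = 0.039 in edgeR's quasi-likelihood test). The call was lost when either H library was left out, with adjusted p = 0.11 without modHNH and 0.32 without modHTH. It was also lost without modNNN replicate 1 (0.093), modNTN replicate 1 (0.098), modNTN replicate 2 (0.096), POT1-ccdB replicate 1 (0.063) or POT1-ccdB replicate 2 (0.053). The estimate without 1 library ranged from -0.94 to -0.58.

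SSA2 had 1830.4 and 2085 CPM in modHNH and modHTH, against 1550.2 and 1758 CPM in modNNN and 1499 and 1497 CPM in modNTN. Its log2 fold change was 0.37 (SE 0.17, adjusted p = 0.17 in edgeR), without overlap between the libraries with and without H. SSA1 had 1074 and 1231 CPM with H, against 791 and 1239 CPM in modNNN and 826 and 892 CPM in modNTN, with a value of 0.36 (SE 0.19, adjusted p = 0.23). Only modNNN replicate 2 reached the H libraries in SSA1, and without it SSA1 was called at 0.55 (adjusted p = 0.030) and HSP82 at 0.49 (adjusted p = 0.037). Without that library the fit called 1026 of all genes, against 288 with it.

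The growth stage genes were below 0 with H in 8 of 9 cases, beside 52% of all genes, with 0 called and a median of -0.33. Their mean log2 deviation was -0.16 in modHNH and -0.28 in modHTH, against -0.04 to 0.21 in modNNN and modNTN. Of the mating type alpha genes, SAG1 and STE3 (6 to 20 reads) had enough reads to test. Averaged over both genes, the deviation was 0.60 in modHNH and 0.41 in modHTH, against -0.30 to 0.15 in modNNN and modNTN. The part of either list in the SSA3 result was not tested.

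Ratios between family members within a library need no scaling between libraries. The SSA1 to SSA2 ratio was 0.585 ± 0.059 in the modified libraries (SD, n = 9), ranging from 0.510 to 0.705, against 0.439 and 0.493 in WT. The groups did not overlap, and the mean log2 difference was 0.33 with p = 0.018 in a two-sided exact permutation test, the smallest p that 55 splits allow. After adjustment over the 8 ratio tests the p was 0.15. Since the unadjusted p was already the smallest possible, this ratio could not pass by itself, whatever its size. The adjusted test therefore does not decide whether the ratio differed. In POT1-ccdB the ratio was 0.551 and 0.646.

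The HSP82 to HSC82 ratio was 0.364 ± 0.082 in the reporter libraries (SD, n = 11), against 0.428 and 0.545 in POT1-ccdB. The log2 difference was -0.44, with an exact permutation p of 0.077 and an adjusted p of 0.21. Of the 8 ratio tests 0 passed after adjustment, but with so few splits none could pass unless several reached their smallest p together. The SSA4 to SSA3 ratio spanned the widest range, from 1.25 in modNNN replicate 1 to 4.35 in modHTH, and the SSB1 to SSB2 ratio ran from 0.684 in modHNH to 1.10 in WT replicate 1.

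**Figure D3:**
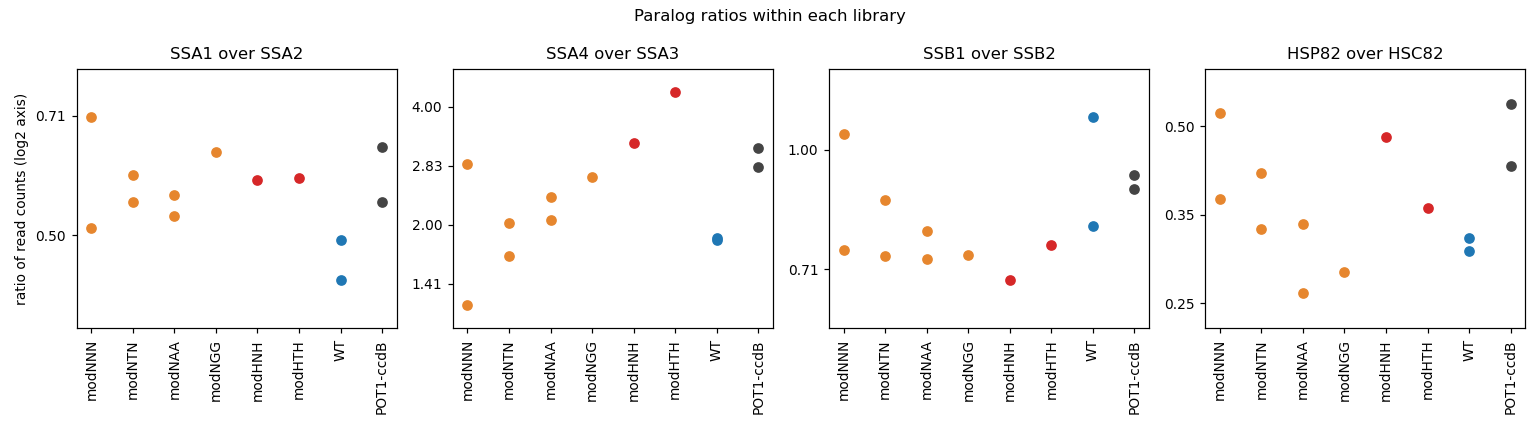
Each panel plots the ratio of read counts of 1 pair of related genes in every library (points), with the groups on the horizontal axis and the ratio on a log2 vertical axis. The 9 modified libraries lie above both WT libraries in the SSA1 to SSA2 ratio, and the SSA4 to SSA3 ratio is highest in modHTH at 4.35.

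Genes that work with these chaperones were read out from lists of partners. Among 15 Hsp70 partners, 0 were called for reporter against POT1-ccdB, with 8 values below 0 and a median of -0.01. With H against without H 1 of the 15 was called, a share near the 5.47% of all genes called in that comparison. It was SSE1, the main Hsp110 exchange factor of cytosolic Hsp70, which rose. SSE1 had 2768 and 3118 CPM in modHNH and modHTH, against 1614 and 2241 CPM in modNNN and 2009 and 1917 CPM in modNTN, with a log2 fold change of 0.66 (SE 0.15, adjusted p = 0.030 in edgeR). Both H libraries exceeded all 4 without H, but modNGG, which has no H, had 2814 CPM.

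The SSE1 call was lost in 9 of 20 alternatives, among them without modHNH (adjusted p = 0.10) and without modHTH (adjusted p = 0.24). ZUO1, the J-protein partner of SSB at the ribosome, had a value of 0.54 with H (SE 0.18, adjusted p = 0.079 in edgeR) and did not pass. Of the 15 Hsp70 partners, 10 had values above 0 with H and 5 below. Of the Hsp90 partners 0 of 12 were called with the reporter. CDC37, the kinase-specific cochaperone, averaged 393 ± 63.4 CPM with the reporter (SD, n = 11), against 570.1 and 449 CPM in POT1-ccdB, with a log2 fold change of -0.51 (adjusted p = 0.078 in edgeR).

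The small heat shock proteins and aggregate sorting factors had 6 of 7 values below 0 with the reporter, a median of -0.34, and 0 called. HSP26, which holds unfolded proteins in a refoldable state, averaged 89.8 ± 21.3 CPM with the reporter (SD, n = 11), against 134 and 159.7 CPM without it (log2 fold change -0.78, adjusted p = 0.074 in edgeR). HSP30, a plasma membrane protein, had a value of -0.55 (adjusted p = 0.070), and the membrane-associated HSP12 one of -0.54 (adjusted p = 0.13). Chaperones of mitochondria and endoplasmic reticulum had 3 of 9 values below 0 and a median of 0.12, and the CCT chaperonin, which folds actin and tubulin, 3 of 8 and a median of 0.01. None of these was called either. Of the 5 regulators 4 were tested and 0 called; YAK1 had 0 to 2 reads in every library, and HSF1 had a log2 fold change of 0.03 between reporter and POT1-ccdB.

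Across the 13 libraries some of the 10 genes varied together. The Pearson correlation of log2 CPM was 0.90 between SSA1 and SSA2 and also 0.90 between SSA4 and HSP82, a pair of heat-inducible genes. It was 0.79 between SSA4 and SSB2, 0.78 between SSB2 and HSP82 and 0.75 between SSB1 and SIS1. Opposite variation was largest between SSB1 and HSC82, at -0.64, followed by -0.58 between HSC82 and SIS1 and -0.52 between SSA2 and SSA3. The related pairs SSB1 and SSB2 and SSA3 and SSA4 had values of -0.29 and 0.04. These are descriptions over 13 libraries that share their depth, culture stage and preparation with every gene in them. How reads that fit both near-identical copies were counted is not stated, so correlations within such pairs, as of SSA1 and SSA2, are uncertain too.

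Among 4576 other yeast genes with at least 20 CPM, the gene most like both SSA1 and SSA2 was ADH1, the alcohol dehydrogenase of fermentation, with correlations of 0.95 and 0.96. SSB2 was most like RPL1A, a large ribosomal subunit gene, at 0.97, and SSB1 most like RNR2, a ribonucleotide reductase subunit gene, at 0.97. For SSA4 it was RHO1, a GTPase gene, at 0.94, and the Hsp110 gene SSE2 was in place 3 for both SSA4 (0.89) and HSP82 (0.87). For HSP104 the nearest was AAT2, an aspartate aminotransferase gene, at 0.80, with HSP12 in place 3 at 0.74. SSA3 was most like MIM2 (0.96), HSC82 most like DBP10 (0.93), HSP82 most like ACH1 (0.89) and SIS1 most like COX4 (0.91). The highest of many correlations is large by selection, and no test was made of it.

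**Figure D4:**
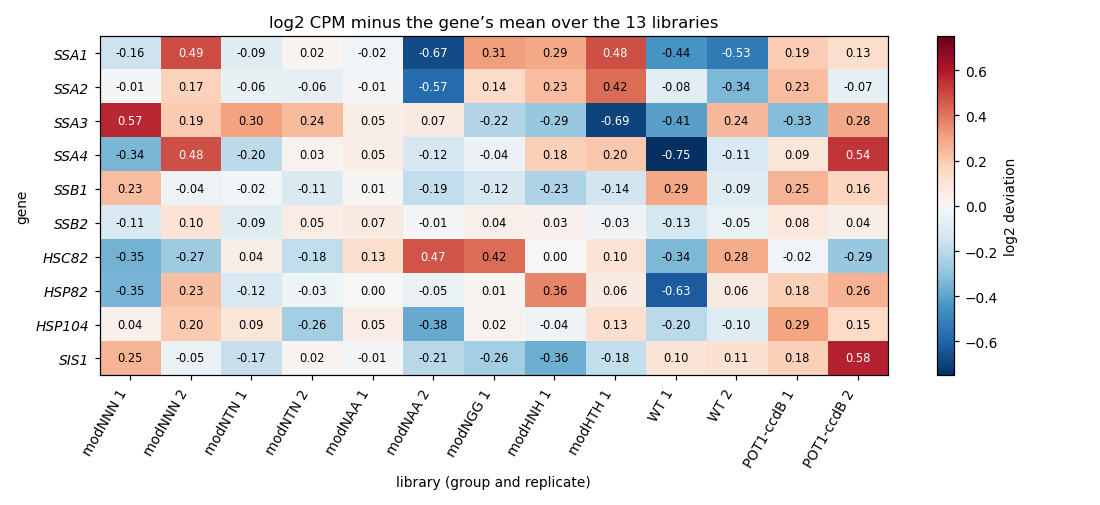
The heat map shows the log2 CPM of each of the 10 genes (down the page) minus that gene's mean over 13 libraries, for each library (across); red is above the mean, blue below, and the number in a cell is the value. Each POT1-ccdB library is above the mean in 8 of 10 genes, though not in the same genes, and modNAA replicate 2 and WT replicate 1 are each above it in 2 of 10.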

How the data were processed

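Read counts per transcript row were deposited by the authors as whole numbers, not normalized. The genome build was sacCer3 (R64), and the tools were HISAT2, featureCounts, SAMtools, bedtools, cutadapt, FastQC and MultiQC, per the submitters' processing notes. No source used here gives their versions, settings or strandedness, or the handling of multi-mapping reads. Transcript coordinates came from the authors' deposited annotation, and symbols from the RefSeq table (5550 of 5696 rows matched). Libraries were grouped by title, and 3 with fewer than 1000 reads were left out.

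Counts of all yeast rows in 13 libraries were fitted with edgeR 4.0.16 in R 4.3.3 (TMM, filterByExpr, quasi-likelihood test, group as the only term), adjusted by Benjamini-Hochberg over 5268 genes at a threshold of 0.05. DESeq2 1.42.0 was an alternative. Plasmid rows were left out of library sizes. Ratios between related genes (0.5 added to each count) were tested by exact permutation in Python 3.11.15 with scipy 1.17.1. The self-test on simulated counts recovered 97% to 97.5% of 200 genes changed by 2-fold for reporter against no reporter. It made up to 13 false calls among 5243 genes. The changed genes were drawn from those with a mean of at least 20 CPM, with the spread fitted to these same data. Changes below 2-fold were not simulated, so the self-test does not show whether smaller differences would be called.

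The 10 genes and all lists were chosen with earlier results of these data known. All 10 genes were named in full. From each list, those called were named, and otherwise up to 4 with the smallest p for reporter against no reporter. ZUO1 was named outside this rule, from the comparison with and without H. For likeness, the 3 genes with the highest Pearson correlation were named. Alternatives changed the tool, the normalization, the filter on low counts, the libraries, the replicate block and the transcript length trend, or left out each library.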

Additional observations from a re-analysis of the deposited data

How the results depend on the processing

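The count of chaperone genes called was 0 in the comparisons of WT with POT1-ccdB, modNNN with WT, and modNTN, modNAA and modNGG with modNNN, under every alternative run. Of the ratio tests 0 passed, but 16 of them could not, even unadjusted. With a WT or POT1-ccdB library left out, 10 or 12 splits allow no p under 0.05, so these are not counted here. The other ratio tests are counted, although none could pass after adjustment unless several reached their smallest p together. For reporter against POT1-ccdB the count was 1, SIS1, in DESeq2, without a filter on low counts and with all 16 libraries, and 0 to 1 with a library left out. For any difference between the 8 groups it was 1 in DESeq2 (SSA1) and 1 with all 16 libraries (SSA3), and 0 to 1 with a library left out. For H against no H it was 0 to 3 with a library left out. Of the other 1754 results for single genes and ratios, 1672 kept their direction and side of the threshold, 62 changed sign without a call, none of these larger than 0.28 in the reported fit, 8 lost a call, 12 gained one and 0 reversed with a call.

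With the replicate number as a block, the count for H against no H was 0, since SSA3 had a log2 fold change of -0.69 and an adjusted p of 0.056 in edgeR; the block changed no other call among the 10 genes. Deviations of same-numbered libraries correlated between -0.31 and 0.32, and 5 of 10 pairs of groups exceeded 0.1, so the numbers were not taken to pair the libraries.

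Counts over all genes moved more. For reporter against POT1-ccdB 20 became 59 in DESeq2 (2655 genes had no adjusted p), 61 without a filter, 288 with all 16 libraries (101 of these higher), 68 with the block, 0 in groups with 2 usable libraries and 0 to 301 with a library left out. For WT against POT1-ccdB 2 became 13 in DESeq2, 4 without a filter, 41 with 16 libraries, 6 with the block, 1 with library totals, 3 each with DESeq2 size factors, with the length trend removed and in groups with 2 usable libraries, and 1 to 5 with a library left out. For H against no H 288 became 699 with 16 libraries, 84 with the length trend removed (4587 genes had a length) and 0 to 1026 with a library left out. Library totals gave 178 lower and 125 higher, against 116 lower and 172 higher with TMM. For any difference 1 became 53 with library totals, 231 in DESeq2, 73 without a filter, 915 with 16 libraries, 4 with the block and 0 to 646 with a library left out. For modNNN against WT 1 became 2 in DESeq2, 5 with 16 libraries and 0 to 14 with a library left out; modNAA and modNGG, with 0, reached 2 and 84 with 16 libraries and 7 and 357 at most with a library left out, modNGG reached 1 in DESeq2, and modNTN reached 1. The causes were not tested. The fit on groups with 2 usable libraries gives no value for modNGG or H. Depth limits SSA3 most, with 80 reads in modHTH.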
